A study of Mus musculus with 12 samples.

Results

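Interferon-stimulated genes are the genes that a cell switches on after an interferon has bound its receptor, and 44 of them were followed here in the cortex of aged mice with amyloid pathology. The 44 genes were chosen as a list of symbols, and each symbol was found among the 50563 genes of the count table through its Ensembl gene identifier. All 44 passed edgeR's filter on low counts, as did 15688 genes in all. RNA-Seq was done on the cortex of 12 E4FAD mice with 1 library per mouse. E4FAD mice carry human APOE4 in place of both copies of the mouse Apoe gene, and 1 copy of the 5xFAD transgenes, which hold familial Alzheimer's disease mutations and overproduce human amyloid beta (genotype APOE4+/+, 5FAD-/+). The CTRL group held 7 mice that received vehicle by oral gavage. The DPAn-6 group held 5 mice that received 700 mg/kg of DPAn-6, the omega-6 docosapentaenoic acid, as ethyl ester each day for 3 weeks. The antioxidants alpha-tocopherol and palmitoyl ascorbic acid were given to both groups, and no mouse without the transgenes or without gavage entered the comparison. By age, 2 CTRL and 2 DPAn-6 mice were 12 months old, and 5 CTRL and 3 DPAn-6 mice were 14 months old. The CTRL group had 4 females and 3 males and the DPAn-6 group 3 females and 2 males, and the sex of a single mouse is not given in the labels.

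In the textbook pathway, a sensor of foreign or misplaced nucleic acid starts the transcription of type I interferon, the interferon binds its receptor on the same or a neighbouring cell, and the kinases Jak1 and Tyk2 activate transcription factors, Stat2 among them. Stat2 and Irf9 are part of a complex that binds a promoter motif named the interferon-stimulated response element. Interferon gamma uses another receptor and acts through the gamma-activated site and through Irf1. The genes that follow encode more sensors and transcription factors, which raise the response, proteins that block viral RNA, entry or release, and Usp18, which limits it. In the brain, microglia, astrocytes and endothelial cells express many of them, and a microglial state with raised interferon-stimulated genes is known from ageing and amyloid models.

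Promoter sequences of these genes are shown because the response element is what ties them to interferon. Windows of 300 bases around annotated starts, from 250 before to 50 after, were taken from RefSeq on GRCm38.p6 and were at hand for 33 of the 44 genes. The core of the response element was searched as GAAANNGAAA on both strands, and it was present in 18 of the 33 genes (54.5%) against 3.99% of 27025 genes with a window. The gamma-activated site, searched as TTCNNNGAA, whose reverse complement has the same letters, was present in 10 (30.3%) against 9.55% of all genes. In 14 of the 18 genes a match to the response element lay in the bases before the start, and 6 of these promoters are given below with each match in capitals, 5′ to 3′ on the strand of the gene, ending at the base before the start.
Isg15 (chr4:156200819-156201068, minus strand): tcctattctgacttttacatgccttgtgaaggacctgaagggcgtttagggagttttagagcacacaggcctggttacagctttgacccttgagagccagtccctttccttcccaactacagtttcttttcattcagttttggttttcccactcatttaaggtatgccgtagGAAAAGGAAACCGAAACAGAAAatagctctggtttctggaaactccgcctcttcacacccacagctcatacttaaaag
Ifit1 (chr19:34640639-34640888, plus strand): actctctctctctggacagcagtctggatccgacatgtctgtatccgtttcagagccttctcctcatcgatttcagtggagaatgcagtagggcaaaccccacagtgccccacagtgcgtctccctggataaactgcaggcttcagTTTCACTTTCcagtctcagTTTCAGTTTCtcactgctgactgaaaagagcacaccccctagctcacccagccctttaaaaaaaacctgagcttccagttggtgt
Ifit3 (chr19:34583279-34583528, plus strand): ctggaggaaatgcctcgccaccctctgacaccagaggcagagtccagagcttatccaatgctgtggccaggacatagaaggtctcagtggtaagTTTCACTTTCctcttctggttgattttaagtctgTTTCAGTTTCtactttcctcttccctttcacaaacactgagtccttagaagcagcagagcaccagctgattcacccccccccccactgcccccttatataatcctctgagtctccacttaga
Ifitm2 (chr7:140955962-140956211, minus strand): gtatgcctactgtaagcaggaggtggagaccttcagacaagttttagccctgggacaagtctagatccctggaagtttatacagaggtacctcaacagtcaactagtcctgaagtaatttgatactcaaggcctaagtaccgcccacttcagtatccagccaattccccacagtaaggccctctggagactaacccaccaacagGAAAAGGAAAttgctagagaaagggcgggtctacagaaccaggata
Irgm1 (chr11:48871421-48871670, minus strand): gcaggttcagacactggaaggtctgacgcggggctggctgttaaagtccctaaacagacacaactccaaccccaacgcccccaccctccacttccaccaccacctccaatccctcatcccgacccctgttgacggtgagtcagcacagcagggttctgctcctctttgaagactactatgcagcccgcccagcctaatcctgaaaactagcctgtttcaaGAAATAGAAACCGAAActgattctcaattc
Stat2 (chr10:128270248-128270497, plus strand): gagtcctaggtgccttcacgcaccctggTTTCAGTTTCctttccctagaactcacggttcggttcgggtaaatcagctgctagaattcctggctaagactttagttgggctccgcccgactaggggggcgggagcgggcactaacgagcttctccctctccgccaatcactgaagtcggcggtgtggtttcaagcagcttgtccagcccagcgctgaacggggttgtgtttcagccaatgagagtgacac
In Isg15 there were 3 overlapping matches, which began 78, 72 and 66 bases before the start. Ifit1 had matches at 104 and 85 bases and Ifit3 at 156 and 122 bases, all on the reverse strand. In Irgm1 2 overlapping matches began 30 and 24 bases before the start, and in Ifitm2 a single match began 46 bases before it. The match in Stat2 lay farther away, at 222 bases. A match is a run of letters and was not measured as a binding site. Of the 18 genes with the core, 14 had a log2 fold change below 0 in DPAn-6 and their median was −0.18, but without the mouse CTRL 3, described next, these were 12 and −0.05. Of the 15 genes with a window and no core, 13 were below 0 and their median was −0.07, and without CTRL 3 these were 5 and 0.03. Without the mouse DPAn-6 3 the medians were −0.10 with the core and −0.04 with no core. In the 14-month mice only, the order turned, with −0.008 and −0.07. A difference between the genes with and without the core was not tested.

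Total counts ranged from 15339098 to 19500154 in CTRL and from 15208803 to 26520251 in DPAn-6 mice. Levels are given as log2 CPM, the log2 of TMM-scaled CPM, with 0.5 added to the count. They are not divided by gene length. Markers of excitatory cortical neurons summed to between 2200 and 2731 CPM in every mouse. The library of CTRL mouse 3 stood apart from the others: across all genes tested, its deviation from the median mouse fell with the GC content of the gene (Spearman's rho −0.60 across 15660 genes, which are not independent), and it was the highest mouse for 30.4% and the lowest for 31.8% of all genes tested. CTRL 2 stood apart in choroid plexus markers, which summed to 1717 CPM there against a CTRL median of 35.7.

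Across the 44 genes, DPAn-6 mice were lower more often than not, by small amounts, and no gene passed the test. The log2 fold change of DPAn-6 against CTRL was below 0 for 36 genes and above 0 for 8, and its median was −0.19, against −0.0047 over all genes tested, of which 51.3% were below 0. Without TMM scaling 34 were below 0. By edgeR's quasi-likelihood test with Benjamini-Hochberg adjustment over all genes tested, 0 of the 44 had an adjusted p below 0.05, where 1.55% of all genes did, and the lowest adjusted p was 0.166, for Parp14. At an unadjusted p below 0.05, 9 of 44 were lower in DPAn-6, where 9.02% of all genes were, and 0 were higher, where 5.51% of all genes were. By DESeq2 the same counts were 10 and 0, and by limma-voom, the method named by the study, 8 and 0. In none of the 44 were the 2 groups of mice free of overlap in log2 CPM, where 3.1% of all genes were free of it. By the two-sided exact permutation test of single genes over 792 splits of the mice, whose smallest p is 0.00126, 5 of 44 genes were below 0.05 without adjustment, where 15.3% of all genes tested were. For the counts by role below, at an unadjusted p below 0.05 with all mice, the shares over all genes are 9.02% lower and 5.51% higher. Because the libraries are of whole tissue, fewer cells of a type and less RNA per cell cannot be told apart here.

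**Figure D1:**
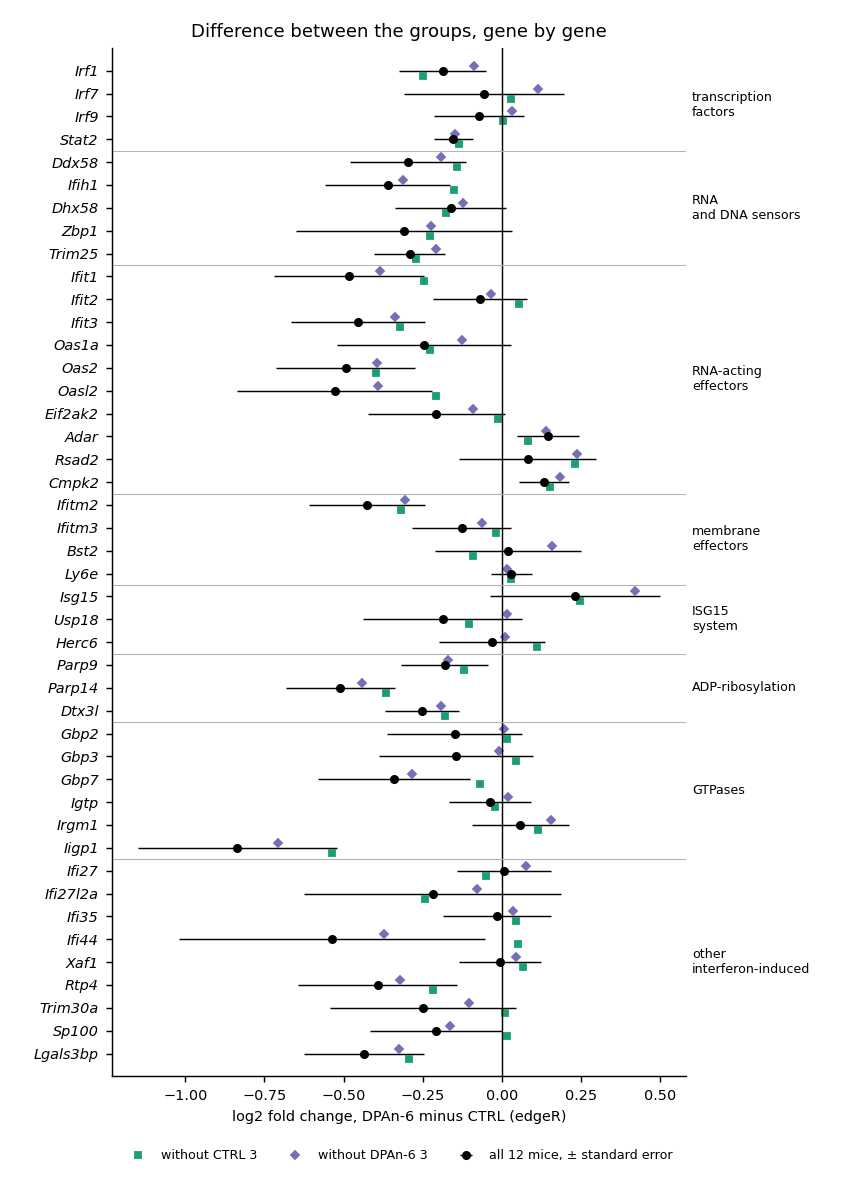
Log2 fold change of DPAn-6 against CTRL for each of the 44 genes, grouped by role. Black points and lines are the edgeR estimate and its standard error over 12 mice, green squares the estimate without CTRL 3 and purple diamonds the estimate without DPAn-6 3. Over all mice 36 genes lie below 0, without CTRL 3 this count is 27 and without DPAn-6 3 it is 28.

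The 4 transcription factors all had a log2 fold change below 0, between −0.19 and −0.06, and 1 had an unadjusted p below 0.05. Only 2 of 4 were below 0 without CTRL 3, and also without DPAn-6 3, because Irf7 and Irf9 turned. Stat2, the partner of Irf9 (ENSMUSG00000040033, GRCm38 chromosome 10, 128270559 to 128292849), had the narrowest spread of them. In CTRL mice Stat2 ranged from 5.20 to 5.38 log2 CPM with a median of 5.27, and in the 5 DPAn-6 mice it was 5.17, 5.11, 5.13, 5.04 and 5.21. Below the lowest CTRL mouse lay 4 of the 5 DPAn-6 mice, and DPAn-6 5 lay just above it. The mean was 5.29 ± 0.065 (SD, n = 7) for CTRL and 5.13 ± 0.067 (SD, n = 5) for DPAn-6 mice (exact permutation p = 0.00379), and edgeR gave a log2 fold change of −0.15 ± 0.06 (standard error, adjusted p = 0.258). Without CTRL 3 the value for Stat2 was −0.14. Irf7, which amplifies interferon transcription, had 1.98 ± 0.38 log2 CPM in CTRL (SD, n = 7) and 1.86 ± 0.64 in DPAn-6 (SD, n = 5), and the DPAn-6 group held both its highest mouse, DPAn-6 1 at 2.62, and its lowest, DPAn-6 3 at 1.02. The log2 fold change of Irf7 was −0.06 with all mice, 0.03 without CTRL 3 and 0.11 without DPAn-6 3. That of Irf9 was −0.07, and 0.0028 and 0.03 without these mice, and that of Irf1 was −0.19. The exons of Irf9 overlap those of Rnf31 on the same strand and those of Irf7 overlap Phrf1 on the opposite strand. The counts of Irf9 and Irf7 are therefore uncertain.

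The 5 genes of nucleic acid sensing, Trim25 among them, were all below 0, between −0.36 and −0.16. Only Trim25, which does not encode a sensor, had an unadjusted p below 0.05. All 5 were also below 0 without CTRL 3 and without DPAn-6 3, and their median of −0.30 became −0.18 and −0.21. Trim25 (ENSMUSG00000000275, chromosome 11, 88999376 to 89020293) is the ubiquitin ligase that activates the RNA sensor encoded by Ddx58. It ranged from 3.42 to 3.96 log2 CPM in CTRL, with a median of 3.81, and was 3.63, 3.68, 3.13, 3.44 and 3.52 in DPAn-6. All DPAn-6 mice lay below the CTRL mean, and the groups overlapped through CTRL 5, the lowest CTRL mouse. The log2 fold change of Trim25 was −0.29 ± 0.11 (standard error, edgeR unadjusted p = 0.0208, adjusted p = 0.237, exact permutation p = 0.024). Ifih1 (ENSMUSG00000026896, chromosome 2, 62595798 to 62646255), a sensor of long double-stranded RNA, ranged from 2.92 to 4.27 in CTRL with a median of 3.24 and was 3.22, 2.93, 2.85, 3.02 and 3.14 in DPAn-6. The value of 4.27 is that of CTRL 3, and the next CTRL mouse was at 3.42. The log2 fold change of Ifih1 was −0.36 with all mice and −0.15 without CTRL 3. Ddx58 had a log2 fold change of −0.30, and −0.14 without CTRL 3. Dhx58, a regulator of these sensors, was at −0.16, and Zbp1, a sensor of Z-form nucleic acid with only 3 to 25 counts per mouse, was at −0.31 with a standard error of 0.34.

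Of the 10 effectors that act on RNA or nucleotides, 7 were below 0 and 3 above 0, their median was −0.23, and 2 were lower at an unadjusted p below 0.05. The median was −0.11 without either CTRL 3 or DPAn-6 3, and 0 were then lower at that p. The Ifit proteins bind the ends of foreign RNA. Ifit3 (ENSMUSG00000074896, chromosome 19, 34583531 to 34588731) ranged from 3.09 to 4.17 log2 CPM in CTRL with a median of 3.48, and was 3.66, 2.60, 2.55, 3.06 and 3.28 in DPAn-6. Below the lowest CTRL mouse lay 3 of the 5 DPAn-6 mice and DPAn-6 1 lay above the CTRL median. The edgeR estimate of the fold change was −0.45 ± 0.21 on the log2 scale (standard error, edgeR unadjusted p = 0.0495, adjusted p = 0.343). Ifit3 has a near-identical copy, Ifit3b, whose log2 fold change was −0.54, and the counts of both are uncertain. Ifit1 (ENSMUSG00000034459, chromosome 19, 34640871 to 34650009) ranged from 1.92 to 3.30 in CTRL with a median of 2.11, and was 2.14, 1.75, 1.42, 1.73 and 2.16 in DPAn-6. CTRL 3 was again the highest, and the log2 fold change of Ifit1 of −0.48 became −0.25 without it. Ifit2, next to them on the chromosome, was at −0.07, and at 0.06 without CTRL 3.

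The oligoadenylate synthetases make the messenger that activates an RNA-degrading enzyme. Oas2 (ENSMUSG00000032690, chromosome 5, 120730333 to 120749853), with 15 to 48 counts per mouse, ranged from 0.57 to 1.53 log2 CPM in CTRL with a median of 1.07, and was 0.56, 0.94, 0.11, 0.02 and 0.85 in DPAn-6. The lowest values were those of DPAn-6 3 and 4, the 12-month mice. EdgeR put the difference at −0.49 ± 0.22 on the log2 scale (standard error, edgeR unadjusted p = 0.041, adjusted p = 0.316, exact permutation p = 0.0467). Oasl2 (ENSMUSG00000029561, chromosome 5, 114896936 to 114912234) ranged from 2.70 to 4.81 in CTRL with a median of 3.34, and was 3.47, 2.86, 2.43, 3.17 and 3.46 in DPAn-6. Oasl2 was highest in CTRL 3, and its log2 fold change of −0.53 became −0.21 without that mouse. Oas1a was at −0.24. Eif2ak2, the kinase that halts translation when it meets double-stranded RNA, was at −0.21 with all mice and −0.01 without CTRL 3.

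The 3 effectors with a log2 fold change above 0 were Adar, Rsad2 and Cmpk2. Adar (ENSMUSG00000027951, chromosome 3, 89715022 to 89753446) deaminates adenosine in double-stranded RNA and is made from a constitutive as well as an interferon-driven promoter. It ranged from 7.53 to 8.22 log2 CPM in CTRL with a median of 8.03, and was 8.15, 8.10, 8.17, 8.04 and 8.13 in DPAn-6. The DPAn-6 mice all lay inside the CTRL range, and the lowest mouse was CTRL 3. DPAn-6 differed from CTRL by 0.15 ± 0.10 on the log2 scale (standard error, adjusted p = 0.553), 0.08 without CTRL 3, and −0.03 with Ttr, a choroid plexus marker, as a covariate. Adar shares 1365 bases of exon with Chrnb2 on the opposite strand, so that its counts are uncertain. Cmpk2, a mitochondrial nucleotide kinase, was at 0.13. Without DPAn-6 3 it was at 0.19 and was the 1 gene of 44 higher at an unadjusted p below 0.05 by edgeR, where 4.23% of all genes were. Rsad2, which makes a nucleotide that stops viral RNA synthesis, was at 0.08, and at 0.23 without CTRL 3.

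Among the 4 membrane effectors, 2 were below 0 and 2 above 0, and their median log2 fold change was −0.05. The short membrane protein Ifitm2 (ENSMUSG00000060591, chromosome 7, 140954837 to 140955987) restricts the entry of viruses into cells. It ranged from 1.73 to 2.68 log2 CPM in CTRL with a median of 2.06, and was 1.94, 1.88, 1.16, 2.01 and 1.47 in DPAn-6. DPAn-6 3 and 5 lay below every CTRL mouse, and the other 3 lay in the lower part of the CTRL range. The fitted log2 difference was −0.42 ± 0.18 (standard error, edgeR unadjusted p = 0.035, adjusted p = 0.299, exact permutation p = 0.0543). Ifitm3, its neighbour, was at −0.13 with all mice and at −0.02 without CTRL 3. Bst2, which holds budding viruses at the cell surface, was at 0.02, and at −0.09 without CTRL 3. Ly6e (ENSMUSG00000022587, chromosome 15, 74955051 to 74959905), a lipid-anchored surface protein, had the highest level of the 44 genes per kilobase of exon (5.99 log2 CPM per kb, mean of 12 mice). In CTRL mice Ly6e ranged from 7.81 to 8.02 log2 CPM with a median of 7.90, and in DPAn-6 mice it was 8.04, 7.90, 8.0, 7.73 and 7.97. The highest and the lowest mouse were both DPAn-6 mice, and the log2 fold change was 0.03 ± 0.07 (standard error).

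Isg15 is a ubiquitin-like protein that is conjugated to other proteins, Herc6 is its main ligase in the mouse and Usp18 removes it. None of the 3 had an unadjusted p below 0.05. Isg15, with 15 to 59 counts per mouse, had 0.50 ± 0.27 log2 CPM in CTRL (SD, n = 7) and 0.60 ± 0.74 in DPAn-6 (SD, n = 5), and its log2 fold change of 0.23 ± 0.27 (standard error) was the highest of the 44. The DPAn-6 mice lay on both sides of the CTRL mice, at 1.22, 1.04 and 1.14 in DPAn-6 1, 4 and 5 and at −0.04 and −0.36 in DPAn-6 2 and 3, where CTRL mice ranged from 0.13 to 0.95. Herc6 (ENSMUSG00000029798, chromosome 6, 57581000 to 57664632) ranged from 3.38 to 4.47 log2 CPM in CTRL with a median of 3.68 and was 3.86, 3.73, 3.62, 4.05 and 3.55 in DPAn-6. The edgeR estimate of the fold change was −0.03 on the log2 scale, and 0.11 without CTRL 3. Usp18 was at −0.19, at −0.10 without CTRL 3 and at 0.02 without DPAn-6 3, whose value of 0.04 log2 CPM was the lowest of all.

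The 3 genes of ADP-ribosylation were all below 0, and 2 of them were lower at an unadjusted p below 0.05. Without CTRL 3, and also without DPAn-6 3, 1 was lower at that p. Parp14 (ENSMUSG00000034422, chromosome 16, 35832874 to 35871544), a macrodomain protein that transfers ADP-ribose, had the lowest p of the 44 genes. It ranged from 2.97 to 4.03 log2 CPM in CTRL with a median of 3.23, and was 3.02, 2.89, 2.57, 3.03 and 2.70 in DPAn-6. Below the lowest CTRL mouse lay 3 of the 5 DPAn-6 mice, and the other 2 were just above the lowest of them. The mean was 3.32 ± 0.36 (SD, n = 7) for CTRL and 2.84 ± 0.20 (SD, n = 5) for DPAn-6 mice (exact permutation p = 0.0189), and edgeR gave a log2 fold change of −0.51 ± 0.17 (standard error, unadjusted p = 0.00963, adjusted p = 0.166). It was −0.36 without CTRL 3 and −0.44 without DPAn-6 3. Dtx3l (ENSMUSG00000049502, chromosome 16, 35926511 to 35939151), the ubiquitin ligase that partners Parp9, ranged from 3.30 to 3.88 in CTRL with a median of 3.37 and was 3.39, 3.17, 3.02, 3.24 and 3.42 in DPAn-6. EdgeR put the difference at −0.25 ± 0.12 on the log2 scale (standard error, edgeR unadjusted p = 0.0493, adjusted p = 0.342) and that of Parp9 was −0.18. Parp9 and Dtx3l share 458 bases of exon on opposite strands. The strand column used for counting is not given, so their counts are uncertain.

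Of the 6 interferon-induced GTPases, some of which attack the membranes around intracellular microbes, 5 were below 0 and 1 above 0, and 1 was lower at an unadjusted p below 0.05. Without CTRL 3, and also without DPAn-6 3, 3 of 6 were below 0. Iigp1 (ENSMUSG00000054072), with 18 to 82 counts per mouse, had the lowest log2 fold change of the 44 genes. It ranged from 0.61 to 2.48 log2 CPM in CTRL with a median of 1.11, and was 0.61, 0.61, −0.11, 0.68 and 0.69 in DPAn-6. All DPAn-6 mice lay below the CTRL mean, but only DPAn-6 3 lay below every CTRL mouse, and CTRL 3 was again the highest. The log2 fold change was −0.84 ± 0.31 (standard error, edgeR unadjusted p = 0.0181, adjusted p = 0.225, exact permutation p = 0.0341), and −0.54 without CTRL 3. Irgm1 (ENSMUSG00000046879, chromosome 11, 48861968 to 48871683) ranged from 3.38 to 4.14 in CTRL with a median of 3.94 and was 4.05, 4.04, 3.45, 3.84 and 3.99 in DPAn-6. DPAn-6 differed from CTRL by 0.06 on the log2 scale, 0.11 without CTRL 3, and −0.13 with Ttr as a covariate. Gbp7 was at −0.34 with all mice and at −0.07 without CTRL 3, whose value of 4.03 log2 CPM was nearly 1 unit above the next CTRL mouse, at 3.07. Gbp2 and Gbp3 were each at −0.15 and, without CTRL 3, at 0.02 and 0.04. Igtp, which shares exon sequence with Irgm2, was at −0.04, and at −0.02 without CTRL 3.

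Of the other 9 interferon-induced genes, 8 were below 0 and 1 above 0, and 1 was lower at an unadjusted p below 0.05. Without CTRL 3 4 of the 9 were below 0, and without DPAn-6 3 6 of the 9. Lgals3bp (ENSMUSG00000033880, chromosome 11, 118392751 to 118402092), a secreted glycoprotein that binds galectins, had 606 to 1605 counts per mouse. It ranged from 5.49 to 6.61 log2 CPM in CTRL with a median of 5.88, and was 5.69, 5.62, 5.02, 5.31 and 5.90 in DPAn-6. DPAn-6 3 and 4 lay below every CTRL mouse. The fitted log2 difference was −0.43 ± 0.19 (standard error, edgeR unadjusted p = 0.0369, adjusted p = 0.305, exact permutation p = 0.0884), and −0.29 without CTRL 3. Ifi44 had the widest spread of the 44 among CTRL mice, 0.39 ± 1.08 log2 CPM (SD, n = 7), from −0.87 in CTRL 4 to 2.39 in CTRL 3, and its log2 fold change of −0.54 became 0.05 without CTRL 3. Sp100, a protein of nuclear bodies, and Trim30a moved from −0.21 and −0.25 to 0.02 and 0.01 without that mouse. Rtp4 was at −0.39, Ifi35 at −0.02, Xaf1 at −0.01 and Ifi27 at 0.01, and without CTRL 3 these were −0.22, 0.05, 0.07 and −0.05. Ifi27l2a was at −0.22, and at −0.08 without DPAn-6 3.

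**Figure D2:**
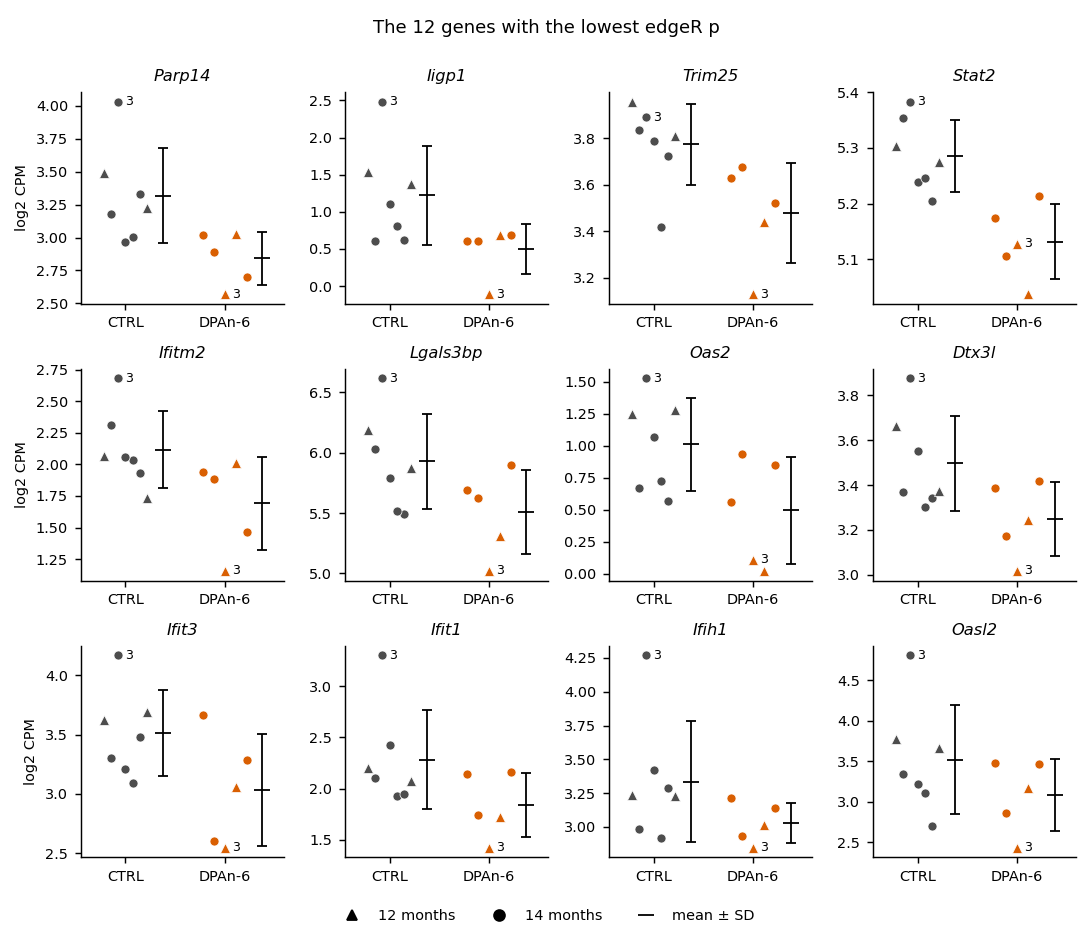
Log2 CPM per mouse of the 12 genes with the lowest edgeR p, in order of p. Triangles are 12-month and circles 14-month mice, the digit 3 marks CTRL 3 and DPAn-6 3, and the lines at the right of each group are mean ± SD (7 CTRL and 5 DPAn-6 mice). The axes do not start at 0. The groups overlap in every panel, CTRL 3 is the highest mouse in 11 of 12 panels, and DPAn-6 3 the lowest in 10 of 12.

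A pair of mice, CTRL 3 and DPAn-6 3, lay at opposite ends for many of the 44 genes. CTRL 3 was the highest of the 12 mice for 29 of the 44 genes, and its median deviation from the median mouse over the 44 genes was 0.64 on the log2 scale. DPAn-6 3 was the lowest for 21 of 44, against 7.91% of all genes tested, and only 2 of 44 genes lay above the median mouse in it, with a median deviation of −0.54. After each library's trend on GC content and length was taken out, the deviations were 0.61 and −0.50. The 44 genes did not move as a block in CTRL 3: Bst2, Adar and Ifi27 were lowest of all mice there, at 1.18, 7.53 and 4.08 log2 CPM. The other CTRL mice differed as well, since 39 of the 44 genes lay above the median mouse in CTRL 1, 32 in CTRL 7, and 8 and 9 in CTRL 5 and CTRL 6. Without CTRL 3, 27 genes were below 0 with the median at −0.08, and 4 of 44 were lower at an unadjusted p below 0.05, where 12.5% of all genes then were. Without DPAn-6 3, 28 were below 0 with a median of −0.10, and 1 of 44 was lower at an unadjusted p below 0.05, where 6.84% of all genes were. The 4 genes of the first count were Parp14, Stat2, Trim25 and Iigp1, and the 1 of the second was Parp14. The 8 genes that turned above 0 without DPAn-6 3 were Irf7, Irf9, Usp18, Herc6, Gbp2, Igtp, Ifi35 and Xaf1.

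**Figure D3:**
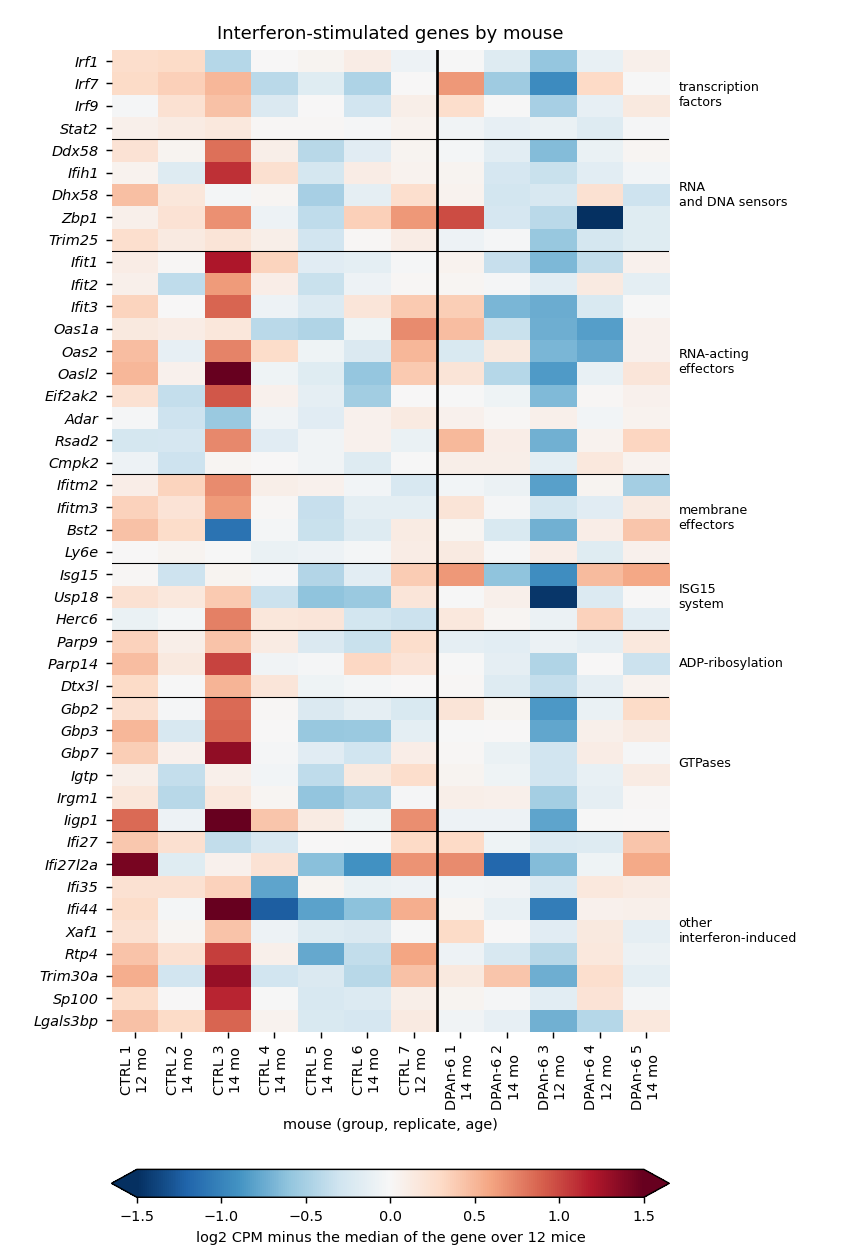
Log2 CPM of each of the 44 genes in each mouse minus the gene's median over 12 mice (colour scale capped at 1.5), with CTRL mice left of the line and DPAn-6 mice right of it. CTRL 3 is mostly red, with a median of 0.64 over the genes, and DPAn-6 3 mostly blue, with a median of −0.54.

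The median SD over the 44 genes was 0.37 log2 CPM among CTRL mice, against 0.24 over the 14319 genes tested whose mean levels lay in the same range. Without CTRL 3 it was 0.25 against 0.16, and among DPAn-6 mice 0.28 against 0.13. No test was made of these differences.

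When the mice were split by age, most of the 44 genes were lower in DPAn-6 at 12 months, and as many were higher as lower at 14 months. At 12 months, with 2 mice a group, the mean of DPAn-6 was below that of CTRL for 42 of 44 genes, with a median difference of −0.44 log2 CPM, and 28 of 44 had both DPAn-6 mice below both CTRL mice, where 3923 of 15688 genes tested did. At 14 months, with 5 CTRL and 3 DPAn-6 mice, 22 genes were lower and 22 higher, with a median difference of 0.0076. Among all genes tested, 49.0% were lower at 12 and 49.6% at 14 months, and the medians were 0.0058 and 0.0022. In the fit of the 14-month mice only, 0 of 44 genes had an unadjusted p below 0.05 by edgeR, where 8.96% of all genes did. The lower levels at 12 months came with each of the 4 pairs of mice, although in unequal measure: 41 and 38 of 44 genes were lower in DPAn-6 3 and 4 than in CTRL 1, and 43 and 30 were lower than in CTRL 7. The median differences of these pairs were −0.80 and −0.30 from CTRL 1, and −0.63 and −0.18 from CTRL 7. Of all genes tested, between 48.3% and 50.2% were lower in these pairs.

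The difference between the ages was tested as the interaction of group and age in edgeR. No gene of the 44 had an adjusted p below 0.05, where 0.00637% of all genes, a single gene, did, and the lowest adjusted p was 0.905. At an unadjusted p below 0.05, 6 of 44 genes had an interaction, where 4.26% of all genes did, and in all 6 the difference was higher at 14 than at 12 months: Ifi27, Oas1a, Ifi27l2a, Oas2, Usp18 and Irgm1. Ifi27 had the lowest of these p. Its mean log2 CPM was 4.81 in CTRL and 4.26 in DPAn-6 at 12 months and 4.38 in CTRL and 4.67 in DPAn-6 at 14 months, and its interaction was 0.84 ± 0.24 on the log2 scale (standard error), with an edgeR unadjusted p of 0.0043 and an adjusted p of 0.905. Ifi27l2a, with 8 to 48 counts per mouse, went from 1.14 in CTRL to −0.27 in DPAn-6 at 12 months and from −0.20 to 0.12 at 14 months. The interaction was above 0 for 38 of the 44 genes, where it was above 0 for 49.3% of all genes tested. CTRL 3 is a 14-month mouse, and without it 21 of 44 genes had an interaction at an unadjusted p below 0.05, where 7.72% of all genes did, all with a higher difference at 14 months, and the lowest adjusted p was 0.196, for Lgals3bp. DPAn-6 3 is a 12-month mouse, and without it 4 of 44 genes had one, where 3.09% of all genes did. With 2 mice of 12 months in each group, a difference between ages and a difference between those 4 mice and the other 8 cannot be told apart.

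**Figure D4:**
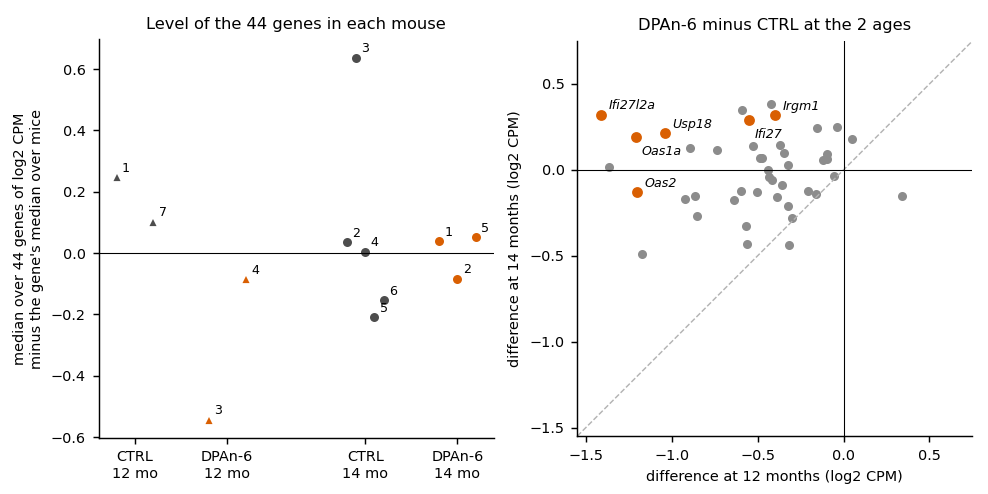
Left, median over the 44 genes of log2 CPM minus the gene's median over 12 mice, for each mouse by age and group, with replicate numbers beside the points. Right, for each gene the mean log2 CPM of DPAn-6 minus CTRL at 12 months (horizontal) and 14 months (vertical), where the dashed line marks equal differences and orange points are the 6 genes with an unadjusted interaction p below 0.05. At 12 months both CTRL mice lie above both DPAn-6 mice (0.25 and 0.10 against −0.54 and −0.08), and at 14 months the groups overlap.

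The interferons themselves were at the limit of detection. Of 10 interferon genes, 7 had a count of 0 in every mouse. A count of 0 allows up to 3 counts in a library, or 0.113 to 0.197 CPM at these depths, for counting error only. Ifng, interferon gamma, had 3 counts in CTRL 3 and 1 in CTRL 4, and Ifna2 and Ifne had 1 count each in DPAn-6 1. The receptor gene of interferon lambda, Ifnlr1, had 0 to 11 counts per mouse and did not pass the filter. The other receptor genes had 132 counts or more in each mouse. Ifnar1 had a log2 fold change of −0.04 and Ifnar2 of −0.27 (edgeR unadjusted p = 0.0241, adjusted p = 0.254), and the interferon gamma receptor genes Ifngr1 and Ifngr2 were at −0.13 and 0.10. The kinase genes Jak1 and Tyk2 were at 0.09 and −0.10.

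A list of 43 genes of interferon signalling, interferons included, had 31 genes that passed the filter, of which 24 were below 0 at a median of −0.09. In this list 6 genes were lower at an unadjusted p below 0.05, where 9.02% of all genes tested were, and 0 were higher, where 5.51% were. At an adjusted p below 0.05, 1 was lower, where 179 of 15688 genes tested were. Without CTRL 3, 19 of 31 were below 0 and 1 was lower at an adjusted p below 0.05, and without DPAn-6 3 these were 23 and 0. The 1 gene with all mice was Tlr9, the endosomal receptor of microbial DNA. Tlr9 had 2.54 ± 0.32 log2 CPM in CTRL (SD, n = 7) and 1.69 ± 0.38 in DPAn-6 (SD, n = 5). Its groups did not overlap, as was so for 3.1% of all genes tested. Its log2 fold change was −0.84 ± 0.19 (standard error, edgeR adjusted p = 0.0419). The kinase gene Ikbke was at −0.73 (adjusted p = 0.093), also with no overlap of the groups, and Irf8, a transcription factor of microglia and other myeloid cells, at −0.39 (adjusted p = 0.166). A second list held 57 other interferon-stimulated genes, of which 45 passed the filter and 42 were below 0, with a median of −0.23. Of these 11 were lower at an unadjusted p below 0.05, where 9.02% of all genes tested were, and 0 were higher, where 5.51% were. At an adjusted p below 0.05, 1 was lower, where 179 of 15688 genes tested were. Without CTRL 3, 28 of 43 tested were below 0 with a median of −0.11, and 2 were lower at an adjusted p below 0.05. Without DPAn-6 3, 36 of 46 tested were below 0 with a median of −0.13, and 0 passed. The 1 gene with all mice was Rnf213, a very large ubiquitin ligase, which had 5.47 ± 0.19 log2 CPM in CTRL (SD, n = 7) and 4.91 ± 0.16 in DPAn-6 (SD, n = 5), with all DPAn-6 mice below every CTRL mouse (log2 fold change −0.55 ± 0.10, standard error, edgeR adjusted p = 0.0151). Without CTRL 3 it was at −0.50, and in the 14-month mice only at −0.42. Trim56, a ubiquitin ligase with a role in nucleic acid sensing, was at −0.46 (adjusted p = 0.054) and Slfn8 at −0.69 (adjusted p = 0.185). The classical marker Mx1, with 4 to 20 counts per mouse, was at −0.09, and Cxcl10, the chemokine that draws T cells, was at −0.09.

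Markers of several cell types moved with the groups, and their part in the levels of the 44 genes was not tested. All 12 microglial markers were below 0 at a median of −0.48. At an adjusted p below 0.05, 4 of them were lower (7 without CTRL 3, 2 without DPAn-6 3), where 179 of 15688 genes tested were with all mice. Their summed level ranged from 884 to 1267 CPM in CTRL and from 659 to 851 in DPAn-6 mice, without overlap. In CTRL 3 the microglial sum of 1019 CPM was the median of the CTRL mice, and in DPAn-6 3 the sum of 659 was the lowest of all. Of 8 markers of border macrophages, 6 were tested and all were below 0, with a median of −1.11 and summed levels of 35.3 to 51.2 CPM in CTRL and 23.3 to 32.5 in DPAn-6. Of these 6, 3 were lower at an adjusted p below 0.05 (4 without CTRL 3, and 2 of 7 tested without DPAn-6 3). All 8 markers of meningeal fibroblasts were below 0, with a median of −0.76, and their sum was highest in CTRL 3, at 256 CPM. At an adjusted p below 0.05, 4 of the 8 were lower (4 without CTRL 3, 0 without DPAn-6 3). Astrocyte markers were below 0 for 8 of 9 genes, with a median of −0.17 and a sum of 11881 CPM in CTRL 3, against a CTRL median of 8299. Endothelial markers had a median of −0.08, with sums of 341 to 393 CPM in CTRL and 322 to 371 in DPAn-6. Of 12 markers of T and NK cells 4 passed the filter, with a median of 0.06, and the 8 markers of monocytes and neutrophils all failed it, with a summed level of 0.459 to 7.45 CPM in CTRL and 0.262 to 0.964 in DPAn-6. Blood markers were below 0 for 5 of 5 genes, with sums of 8.04 to 22.9 CPM in CTRL and 5.41 to 30.5 in DPAn-6. All 5 choroid plexus markers tested were below 0, with a median of −2.71, and 0 passed at an adjusted p below 0.05 (2 without CTRL 3). The sums over 9 choroid plexus markers were 13.7 to 1717 CPM in CTRL, with 218 in CTRL 3, and 7.94 to 24.5 in DPAn-6. Other lists went the other way, with 0 genes at an adjusted p below 0.05. Inhibitory neuron markers were above 0 for 6 of 6 genes, with a median of 0.21 and sums of at most 735 CPM in CTRL and 742 to 881 in DPAn-6. Oligodendrocyte markers were above 0 for 6 of 8 genes, with a median of 0.21, and striatal markers for 8 of 8, with a median of 0.35.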

How the data were processed

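The authors isolated total RNA from the cortex of 12 E4FAD mice, prepared poly(A) libraries (KAPA mRNA HyperPrep) and aligned them to GRCm38 and Ensembl release 88 by STAR, version 2.5.3a in the submitters' processing notes. They deposited raw, unnormalized gene counts. The strand column used for counting is not given in the sources used here. Gene names, positions and exon lengths come from GENCODE M21 of GRCm38, in which 50339 of 50563 identifiers matched.

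From the counts, edgeR 4.0.16 in R 4.3.3 was run on the whole table (glmQLFit and glmQLFTest after filterByExpr by group and TMM scaling, with Benjamini-Hochberg adjustment) with no covariate, and for age with the interaction of group and age. Log2 CPM used a pseudocount of 0.5, and an exact permutation test, two-sided, was run for single genes. Lists were described by counts and medians, without a test. The 44 genes, their roles and all lists were chosen with earlier results of these data known. Values per mouse are given for the 12 genes with the lowest edgeR p, since none had an adjusted p below 0.05, and for the gene with the highest mean log2 CPM in each role. Of the 2 pathway lists, genes with an adjusted p below 0.05 or else the 3 with the lowest p are named. Receptors, kinases, Mx1 and Cxcl10, the other members named with values, and the genes that moved without CTRL 3 were named after their values were seen. Alternatives were DESeq2 1.42.0, limma-voom (limma 3.58.1) with and without sample weights, no TMM, no filter, at least 1 CPM in 5 mice, a covariate for age, Xist or Ttr, the subset of 14-month mice, a block for replicate number and each mouse left out. Removing the GC and length trend of every library, and the 10 mice of the block without it, were added after the data were seen. 1 gene of the signalling list is not reported here by name. The tests were checked on simulated data. Tables were made with Python 3.11.15, numpy 2.4.6, pandas 2.3.3 and scipy 1.17.1.

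P-values measure the spread between these mice. The labels give each mouse its group, replicate number and age. The depth of 15208803 to 26520251 counts per mouse leaves genes such as Zbp1 and Oas1a with few counts and wide standard errors.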

Additional observations from a re-analysis of the deposited data

Results flagged for a closer look

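Among the 88 groups of mice tested, 1 for each of the 44 genes in CTRL and in DPAn-6, 13 held a mouse far from the others, its gap to the nearest mouse being a large part of the range of the group. Chance alone gives such a gap in about 1 in 20 groups, and the 44 genes share the same mice, so the gaps are not independent. The same count was not made over all genes tested, so the share of other genes with such a gap is not known. Across all genes tested, CTRL 3 was the highest mouse for 30.4% and the lowest for 31.8%, and DPAn-6 3 the lowest for 7.91%. In 6 of the 13 the mouse was DPAn-6 3 as the lowest of its group. It had 2.57 log2 CPM of Ddx58 (next mouse 3.05), 2.43 of Eif2ak2 (next 3.03), 0.040 of Usp18 (next 1.30), 2.12 of Gbp3 (next 2.89), −0.11 of Iigp1 (next 0.61) and −0.67 of Ifi44 (next 0.25). In 5 of the 13 it was CTRL 3 as the highest of its group. It had 4.27 log2 CPM of Ifih1 (next 3.42), 3.30 of Ifit1 (next 2.42), 1.96 of Rsad2 (next 1.30), 4.03 of Gbp7 (next 3.07) and 3.73 of Sp100 (next 2.87). Elsewhere, Ifi35 was low in CTRL 4, at 0.66 (next 1.36), and Parp9 was high in DPAn-6 5, at 2.75 (next 2.51). The effect of CTRL 3 and DPAn-6 3 on the comparison of the groups is given by the values without each of them, and no library was left out of the values of the 12 mice.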

How the results depend on the processing

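The median log2 fold change of the 44 genes stayed below 0 in all 25 alternatives, from −0.25 (without CTRL 6) to −0.05 (14-month mice only), and no alternative gave a gene higher in DPAn-6 at an adjusted p below 0.05. With limma-voom and sample weights 1 gene, Parp14, was lower at an adjusted p below 0.05, where 4.87% of all genes were, and 2 genes, Lgals3bp and Ifi27, had an adjusted interaction with age, where 0.427% of all genes did. The count of genes lower at an unadjusted p below 0.05 was 9 of 44 with all mice, where 9.02% of all genes were. It was 0 among 14-month mice, where 8.96% of all genes were lower or higher. With each mouse left out it ranged from 1 (without DPAn-6 3, where 6.84% of all genes were lower) to 11 (without CTRL 5). It was 3 when Ttr was a covariate and 4 with the replicate block. For Ttr, the replicate block and the fit without CTRL 5, the share over all genes was not counted. The count of genes higher was 1 with the replicate block, 1 in the same 10 mice without it and 2 with the GC and length trend removed. The share over all genes was not counted for these either. With each mouse left out it ranged from 0 to 1, and the 1 was without DPAn-6 3, where 4.23% of all genes were higher. In the 14-month mice only, groups did not overlap for 1 of the 44 genes. Of all 15688 genes tested, 749 lay below and 725 above every CTRL mouse at that age. Groups did not overlap for 2 genes in the 10 mice and for 0 to 1 genes with each mouse left out. For these settings the share over all genes was not counted. Single values were followed for 16 genes, those with the lowest p and the highest level in each role. Among them, the sign turned for Adar, Irgm1 and Herc6 with Ttr as covariate (−0.034, −0.13 and 0.16). It also turned for Herc6 with sample weights (0.13) and with the trend removed (0.068). Of the other members, Irf7, Irf9, Ifi35 and Bst2 turned with Ttr as covariate (0.13, 0.09, 0.17 and −0.014). With each mouse left out, Herc6 ranged from −0.10 to 0.11. The causes were not tested. Of 400 single values over 16 genes and 25 alternatives, 306 kept their direction and side of an unadjusted p of 0.05, 74 kept the direction but were no longer below it, 12 passed below it and 8 turned. For mice with the same replicate number, the correlation of their deviations ranged from −0.12 to 0.22 over 5 pairs. Of these 1 was above 0.1, and no mouse correlated best with its own number. The 5 correlations are too few to decide whether mice in a replicate block share more than a number. With few counts in Zbp1, Oas1a, Ifi27l2a and Isg15, depth limits what can be seen of these genes.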
